A study of Mus musculus with 10 samples.

Results

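The cluster of repeated genes at the start of mouse chromosome 14 was followed in ATAC-seq data from purified intestinal epithelial cells (IECs). ATAC-seq cuts open chromatin with the Tn5 transposase, and the count of a peak is the number of sequenced reads or fragments that fell in a region called open. The sources used here do not say which of these was counted. The cluster was taken as every peak from the first peak of D830030K20Rik to the last peak of Gm3558, in the running order of the table, which follows the genome. This gave 1381 of 246479 peaks, or 0.56% of the table, listed under 166 of 44580 gene IDs. The stretch was selected on these same mice, because its peaks were among the most variable of the table, so the spread between mice described here is a description with no test. Single peaks carry no coordinates and are placed here by the genes they are listed under.

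Counts came from 5 WT (Zip14+/+) and 5 KO (Zip14-/-) mice. The KO mice lack the zinc importer Zip14 (Slc39a14) in every tissue. They came from a line with a targeted deletion within the gene, backcrossed to C57BL/6, and WT and KO mice were both bred from heterozygous parents of that line. The mice of the study were young adults, and females unless stated otherwise, and the labels give neither age nor sex for a single mouse. IECs came from the duodenum, as labelled, and per the methods also from the upper jejunum, and were sorted after staining for EpCAM and for markers of blood and vessel cells. The 10 libraries held from 4731176 (KO10) to 15775481 (WT5) counts in peaks. As a check of the genotype, 1 peak of the whole table had 0 counts in every KO mouse and 5 or more in every WT mouse (17, 8, 21, 11 and 16 counts in WT1 to WT5), and it lies between Stc1 and Rps2-ps6 on the same chromosome, an interval that holds Slc39a14. Markers of epithelial, blood and vessel cells were not checked, as their IDs were not paired with symbols in the tables used here.

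Repeated genes of this stretch include the takusan family, named after the Japanese word for many, among copies of other genes. The takusan family arose from duplicated copies of a part of Dlg5, a scaffold protein of cell junctions, and its proteins are known from neurons, where alpha-takusan binds the synaptic scaffold PSD-95. Long runs of near-identical copies are prone to gain or lose copies. A short read from a stretch that copies share cannot on its own be placed on 1 of them with certainty. RefSeq (GRCm38.p6) lists 154 genes from 3208493 to 7568566 of chromosome 14, a length of 4360.1 kb. Of these, 70 are protein coding, 48 are pseudogenes, 34 are long noncoding RNAs and 2 are of another kind. The gene that carries the name takusan there is 2610042L04Rik (chr14:4333878-4354687).

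The promoters show how alike the copies are. RefSeq places the starts of D830030K20Rik and Gm3558, which bound the cluster, on opposite strands, and their promoters are shown with that of Gm3667, the named gene with most peaks. Each runs from 250 bases before to 50 bases after the annotated start, 5' to 3' on the strand of the gene, and capitals mark a run of 20 bases common to the promoters of D830030K20Rik, Gm2956, Gm2974, Gm3636, Gm3667 and Gm3558. The promoter of takusan itself, 2610042L04Rik, is shown as well and does not hold that run.
D830030K20Rik (chr14:3208243-3208542, plus strand): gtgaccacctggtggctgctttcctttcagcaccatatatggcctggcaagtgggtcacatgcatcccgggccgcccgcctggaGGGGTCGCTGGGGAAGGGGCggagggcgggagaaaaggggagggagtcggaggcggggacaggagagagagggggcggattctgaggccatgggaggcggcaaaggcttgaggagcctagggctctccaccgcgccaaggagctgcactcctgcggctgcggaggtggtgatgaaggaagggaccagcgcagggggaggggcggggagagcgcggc
Gm3558 (chr14:7568517-7568816, minus strand): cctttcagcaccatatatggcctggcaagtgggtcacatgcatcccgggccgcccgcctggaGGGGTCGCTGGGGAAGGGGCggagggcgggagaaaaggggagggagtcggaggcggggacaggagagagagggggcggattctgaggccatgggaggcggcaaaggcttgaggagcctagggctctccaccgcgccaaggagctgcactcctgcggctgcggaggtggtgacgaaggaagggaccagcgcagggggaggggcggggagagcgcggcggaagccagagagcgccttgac
Gm3667 (chr14:6889882-6890181, minus strand): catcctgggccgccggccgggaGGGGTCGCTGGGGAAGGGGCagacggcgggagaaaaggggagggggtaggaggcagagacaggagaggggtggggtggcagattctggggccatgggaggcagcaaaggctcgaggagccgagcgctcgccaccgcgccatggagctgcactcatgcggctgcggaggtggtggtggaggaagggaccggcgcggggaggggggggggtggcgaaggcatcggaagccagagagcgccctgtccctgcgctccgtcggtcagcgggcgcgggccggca
2610042L04Rik (chr14:4334513-4334812, plus strand): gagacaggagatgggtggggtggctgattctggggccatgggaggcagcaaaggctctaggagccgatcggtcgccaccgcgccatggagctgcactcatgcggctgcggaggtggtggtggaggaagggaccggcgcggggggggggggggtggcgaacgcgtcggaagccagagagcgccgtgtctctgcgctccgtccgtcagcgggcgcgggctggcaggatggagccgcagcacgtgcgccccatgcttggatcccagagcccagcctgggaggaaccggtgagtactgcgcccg

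In a local alignment, D830030K20Rik and Gm3558 had 277 identical bases over 278 columns (99.6%), although their starts lie at the far ends of the cluster. Gm3667 matched D830030K20Rik at 87.4% of 231 columns. Gm2956, Gm2974, Gm3636 and Gm3667 matched each other at 93.8% to 96.1%, and 2610042L04Rik matched these 4 at 90.8% to 94.6%. Gm3383 stood apart. Its promoter at chr14:5801481-5801780 aligned with the others over 9 bases, and with that of Lamtor3-ps (chr14:6415829-6416128) at 247 of 248 columns (99.6%). The 20-base run, searched on both strands, was in 18 of 109 promoters of the interval (16.5%) and in 0 of 28952 promoters elsewhere, where overlapping promoters were counted once. The run was read from promoters of the interval itself, so this difference is partly built in. Windows of 75 bases, the read length of the study, that recur exactly in another promoter were found in 94 of the 109 promoters (86.2%), against 1655 of the 28952 (5.72%). Of all such windows in a promoter, the promoter of Lamtor3-ps named above shared 99.6%, that of Gm3383 74.3%, D830030K20Rik and Gm3558 70.4% each, Gm2956 56.6%, Gm3636 10.2%, Gm2974 4.42%, Gm3667 3.54% and 2610042L04Rik 0%. A second listed promoter of Gm3383 shared 30.1% and one of D830030K20Rik 67.7%, while all windows of the second one of Lamtor3-ps recurred. On its own, a read that falls within such a window has more than 1 exact place. The reads were paired, so a mate outside the window could place it. Windows were compared among promoters only, so a low share does not show that a read has 1 place. How such reads were treated is not given in the sources used here.

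Over the whole cluster, the 10 mice fell at a high and a low level that crossed the genotypes. The counts of the cluster made up 0.151%, 0.418%, 0.374%, 0.143% and 0.143% of all counts in WT1 to WT5. They made up 0.202%, 0.171%, 0.466%, 0.522% and 0.510% in KO6 to KO10. WT2, WT3, KO8, KO9 and KO10 were high, WT1, WT4, WT5, KO6 and KO7 were low, and no mouse lay between 0.202% and 0.374%. The 95% Wilson intervals of these shares were at most 0.0128 percentage points wide. These intervals cover counting error only and take each count as a separate fragment. The mean share was 0.246% ± 0.138 (SD, n = 5) in WT and 0.374% ± 0.173 (SD, n = 5) in KO mice. This difference was smaller than the SD within either genotype. As a sum over the members this share was given no p. More open chromatin and more copies of a repeated gene both raise such a count, and they cannot be told apart here.

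Depth moved with the share in part. The libraries with fewest counts, KO10 (4731176), WT2 (5202949) and KO9 (5586954), were all high, and WT5, with most counts, was low, as were WT1 (7318572) and WT4 (8677347). WT3 was high with 9677269 counts, next to WT5 in depth, while KO7 was low with 5659163, and KO6 and KO8 had 6074437 and 6094983 counts with shares of 0.202% and 0.466%. The part of depth in the shares was not tested. Scaled with TMM factors, which correct for the composition of each library, the summed level of the cluster was 1433, 4346, 3589, 1479 and 1266 CPM (counts scaled to a library of equal size) in WT1 to WT5. It was 2162, 1803, 4753, 5208 and 5162 CPM in KO6 to KO10. From high to low the mice thus ran KO9, KO10, KO8, WT2, WT3, KO6, KO7, WT4, WT1 and WT5, and the highest mouse had 4.11 times the level of the lowest. Among the high mice, KO mice lay at 4753 CPM or more and WT mice at 4346 CPM or less. Among the low mice, KO mice lay at 1803 CPM or more and WT mice at 1479 CPM or less. The 1380 peaks that follow the cluster ran from 4403 to 5046 CPM over the same mice, a ratio of 1.15.

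**Figure D1:**
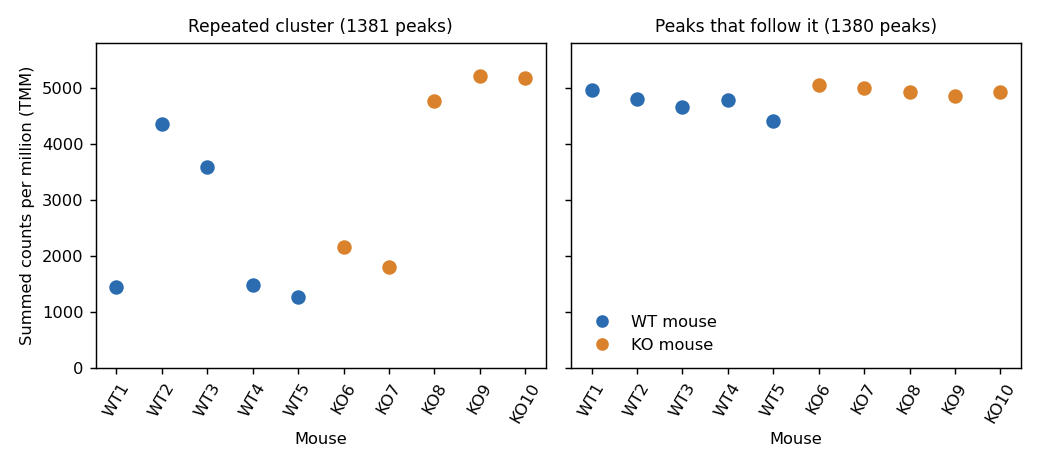
Summed TMM-scaled CPM (y axis) of the 1381 peaks of the cluster (left) and of the 1380 peaks that follow it (right) in each mouse (x axis), with WT mice in blue and KO mice in orange. In the cluster WT2, WT3, KO8, KO9 and KO10 lie from 3589 to 5208 and the other mice from 1266 to 2162, while the following peaks lie from 4403 to 5046 in all mice.

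The order of the mice was counted gene by gene. A gene ID was counted as following it when each of WT2, WT3, KO8, KO9 and KO10 was above each of the other 5 mice in TMM-scaled CPM, summed over the peaks of the gene ID. The split of the mice was read from the summed counts of these same gene IDs, so a higher share among them than elsewhere is partly built in, and the shares are a description. This held for 149 of the 164 gene IDs of the cluster with enough counts to be tested (90.9%), and for 145 of 36551 gene IDs elsewhere (0.397%). Over all tested gene IDs together it held for 0.801%. The opposite order, with the same 5 mice below the others, held for 1 gene ID of the cluster and for 0.417% of all. KO10 was the highest mouse in 69 of the 166 gene IDs, KO9 in 54, KO8 in 32, WT2 in 10 and KO7 in 1. WT5 was the lowest in 75, WT1 in 47, WT4 in 33, KO7 in 6, KO6 in 4 and KO10 in 1.

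The pattern ran the length of the cluster. The ratio of the highest to the lowest mouse, as a median over the gene IDs of a stretch, was 3.08 from D830030K20Rik to Gm2956 and 4.11 from there to Gm2974. It was 4.34 up to Gm3383, 5.99 up to Lamtor3l, 4.07 up to Gm3636, 3.84 up to Gm3667 and 5.58 up to Gm3558. In the last of these stretches, 25 of 25 gene IDs followed the order, and 27 of 33 did so between Gm2956 and Gm2974. Over the 36551 tested gene IDs elsewhere the median ratio was 1.74. The ratio alone does not say which mice were high.

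**Figure D2:**
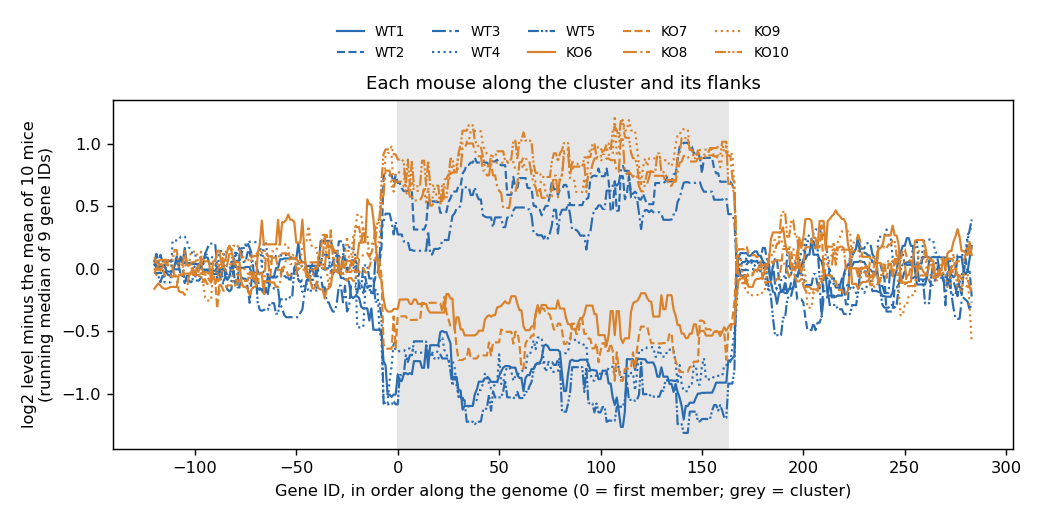
Level of each mouse along the gene IDs (x axis, in genome order, 0 being the first gene ID of the cluster and grey the cluster), as log2 of the CPM plus 0.5 minus the mean of the 10 mice, drawn as a running median of 9 gene IDs (y axis). The mice separate in the grey stretch, where WT2, WT3, KO8, KO9 and KO10 lie above 0 and the others below, and the highest and lowest mouse are 1.23 to 2.45 apart. After the cluster this range stays at 1.502 or more for 3 gene IDs and is then 0.98 or less. Before it the range stays at 1.97 or more for 7 gene IDs and lies from 0.59 to 0.93 at places -20 to -9.

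The bounds set by the rule were close to, but not at, the limits of this pattern. Just inside, the counts of D830030K20Rik were 100, 100, 150, 94 and 167 over the WT mice and 98, 64, 118, 125 and 98 in KO6 to KO10. The gene ID just before it, outside, had 54, 126, 146, 70 and 136 in the WT and 70, 61, 142, 182 and 132 in the KO mice, a ratio of highest to lowest mouse of 4.37 in CPM. At the other end Gm3558, inside, had a ratio of 3.67 and the next gene ID, outside, one of 6.03. Outside the cluster, 5 neighbouring gene IDs before it and 3 after it followed the order of the mice. The next 144 peaks, up to Cfap20dc, ran from 840.2 to 1004 CPM over the 10 mice, a ratio of 1.19.

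Farther along the chromosome the order appeared again. Cfap20dc, the first named gene after the cluster, had 14.8, 26.1, 24.4, 17.6 and 16.9 CPM in WT1 to WT5 and 16.04, 11.97, 29.1, 25.7 and 22.9 CPM in KO6 to KO10. The same 5 mice were highest, with a smaller gap than in most genes of the cluster. Il3ra, which codes for the alpha chain of the interleukin 3 receptor, had 13.2, 27.5, 23.6, 17.8 and 16.1 CPM in the WT and 14.04, 9.35, 24.6, 24.02 and 22.2 CPM in the KO mice. Nid2, which codes for a basement membrane protein, ran the other way, with 33.5, 24.1, 27.3, 29.4 and 33.9 CPM in the WT and 31.9, 35.2, 27.9, 26.4 and 24.3 CPM in the KO mice. These 3 genes were chosen after their values were seen, as the first genes of the study's list after the cluster.

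Between the end of the cluster and Wnt5a (chr14:28504543-28527448), 22 of 279 tested gene IDs followed the order (7.89%) and 15 had the opposite one (5.38%). From Wnt5a to Ednrb, 6 of 1111 followed it (0.54%) and 8 had the opposite (0.72%). The longest run outside the cluster held 10 neighbouring gene IDs with 43 peaks, between Il3ra and Nid2, with 58.6, 187, 163, 63.7 and 55.7 CPM in WT1 to WT5 and 80.7, 73.5, 200.4, 204 and 217 CPM in KO6 to KO10. Its levels split the mice as the cluster did. In the stretch from Stc1 to Rps2-ps6, which holds Slc39a14, 0 of 120 gene IDs had either order.

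In 8 genes of the cluster, the study's list of changed transcripts pairs the gene ID with a symbol. Gm3667 had the most peaks of these, 24, and the highest level. It had 24.4, 107, 97.0, 23.2 and 19.7 CPM in WT1 to WT5 and 33.8, 25.8, 122.1, 120.8 and 109 CPM in KO6 to KO10. The 5 high mice were at least 97.0 and the others at most 33.8 CPM, and 18 of its 24 peaks showed the full order on their own. Gm3636, on the same strand nearby, had 17.3, 52.3, 40.5, 19.5 and 18.6 CPM in the WT and 22.4, 21.9, 50.1, 49.6 and 45.9 CPM in the KO mice. Gm3558, the last gene of the cluster, had 10.8, 29.9, 23.95, 11.7 and 9.44 CPM in the WT and 11.5, 15.1, 34.6, 28.7 and 27.2 CPM in the KO mice. Both had the same mice at the top.

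Of the genes near the start, Gm2956 had 13.9, 44.3, 35.3, 12.3 and 14.3 CPM in WT1 to WT5 and 22.1, 16.3, 47.1, 46.1 and 50.5 CPM in KO6 to KO10. Gm2974 had 12.7, 48.3, 39.2, 11.8 and 9.98 CPM in the WT and 17.9, 18.3, 52.3, 51.8 and 51.3 CPM in the KO mice. Their promoters are 94.8% identical over 251 columns, while 4.42% of the 75-base windows of the Gm2974 promoter recur exactly in another promoter.

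Gm3383, whose listed promoters differ from those shown above, and Lamtor3l, a symbol with no entry in RefSeq, had the same order of mice. Gm3383 had 18.8, 45.5, 36.7, 22.8 and 21.9 CPM in the WT and 29.1, 27.7, 52.0, 52.9 and 50.3 CPM in the KO mice. Lamtor3l had 10.5, 38.0, 32.2, 12.3 and 11.3 CPM in the WT and 16.5, 15.3, 47.9, 45.6 and 48.4 CPM in the KO mice. D830030K20Rik was the exception among the 8, with 13.3, 20.2, 15.8, 11.4 and 9.98 CPM in the WT and 16.4, 11.97, 19.8, 21.6 and 20.4 CPM in the KO mice. Its highest mouse had 2.16 times the level of its lowest, WT3 lay just under KO6, and the ratio was from 2.81 (Gm3383) to 6.21 (Gm3667) in the other 7.

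**Figure D3:**
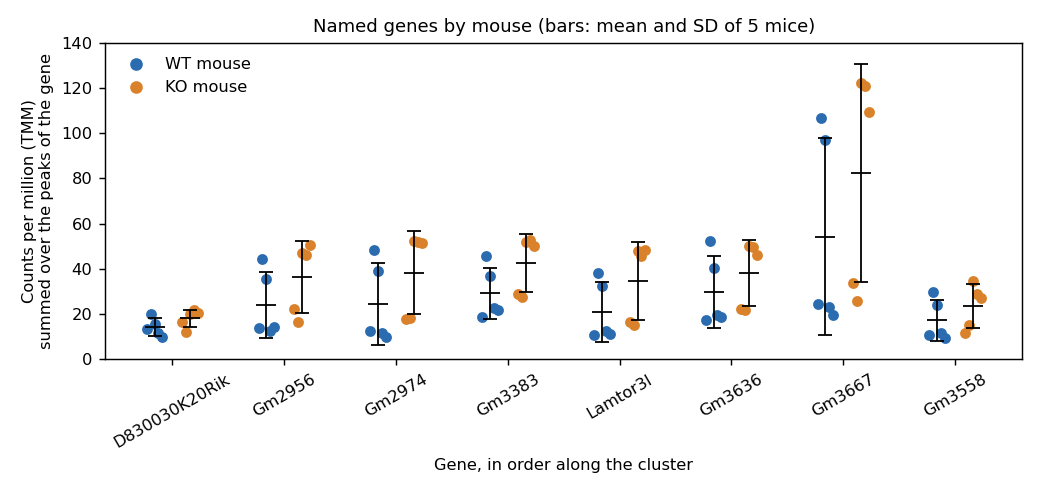
TMM-scaled CPM summed over the peaks of each named gene (y axis), with 1 point per mouse, WT in blue and KO in orange, and black bars for the mean and SD of 5 mice (x axis, genes in order along the cluster). In each gene but D830030K20Rik, 2 WT and 3 KO mice lie above the other 3 WT and 2 KO mice, as for Gm3667, where they lie at 97.0 or more and the rest at 33.8 or less.

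Some gene IDs of the cluster stood outside the pattern. Among those with a mean of at least 50 counts per mouse, the 6 of largest spread had an SD of log2 CPM over the 10 mice from 1.30 to 1.504, and the 6 of smallest spread from 0.198 to 0.358. ENSMUSG00000114611, the most variable, had 10.7, 69.3, 83.5, 11.2 and 8.37 CPM in WT1 to WT5 and 17.4, 12.2, 86.4, 90.4 and 86.9 CPM in KO6 to KO10, a ratio of highest to lowest of 10.8. ENSMUSG00000091022 had 14.1, 82.7, 93.3, 13.1 and 11.95 CPM in the WT and 19.1, 14.8, 112, 110 and 109 CPM in the KO mice. In both, the 5 low mice still had 8.37 CPM or more. ENSMUSG00000096905, the least variable, had 8.403, 7.88, 6.72, 8.52 and 8.13 CPM in the WT and 8.35, 10.3, 7.90, 7.95 and 6.03 CPM in the KO mice. Of the 6 least variable gene IDs, 4 lie between Gm2956 and Gm2974, 1 between Gm2974 and Gm3383 and 1 between Lamtor3l and Gm3636, each within the cluster and not at its edge. In all, 15 tested gene IDs did not follow the order, with ratios of highest to lowest mouse from 1.68 to 7.79. The 8 gene IDs with most peaks, 16 to 26 each, all followed it.

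Over 164 tested gene IDs of the cluster the median SD of log2 CPM was 0.821, against 0.245 over 36551 others, with median counts per mouse of 106 and 87.6. The most variable gene ID of the table, with an SD of 2.93, is not in the cluster. Of the 500 tested peaks of largest variance, 156 were members (31.2%), which made up 0.666% of the tested peaks. With at least 10 counts in every mouse, which leaves 160 members (0.294%), 78 were. The stretch was chosen on this value, and a member could pass the filter through the 5 high mice alone, so it is a description. The median biological coefficient of variation (edgeR's estimate of the spread within genotypes beyond counting noise) was 0.447 for the 540 member peaks tested and 0.163 for all 81022 tested peaks. With no filter on low counts it was 0.348 for the 1381 members and 0.284 for all peaks.

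**Figure D4:**
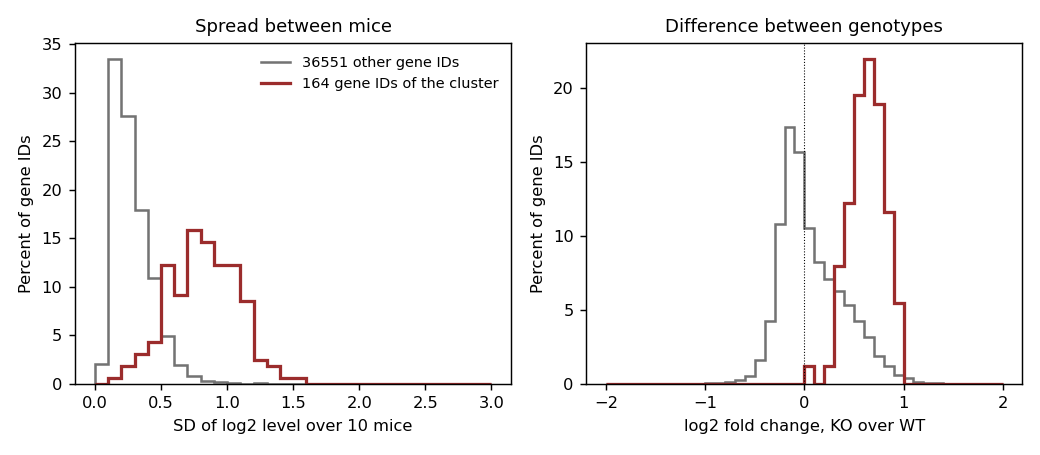
Left, the SD over 10 mice of the log2 level of a gene ID (x axis) and right, its log2 fold change of KO over WT (x axis), as the percent of gene IDs in bins of 0.1 (y axis), with the 164 tested gene IDs of the cluster in red and 36551 others in grey (12 of them beyond the right panel). The red curves lie to the right of the grey ones in both, with medians of 0.821 against 0.245 for the SD, and a cluster median of 0.63 for the log2 fold change.

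The same spread was also counted peak by peak. A peak was counted as nearly absent in a mouse when its count was under 10% of that expected at the mean CPM of the 3 highest mice, where at least 10 counts were expected. In most member gene IDs the 3 highest mice are among those at the high level, so a low share in these is built into the measure, and the difference between high and low mice is no finding of its own. At few expected counts, a lower level also leaves some peaks at or near 0 by counting alone. Shares are of the member peaks with at least 10 expected counts in that mouse. Peaks were nearly absent in 17.2% of 1078 in WT1, 9.72% of 1132 in WT4 and 19.8% of 1361 in WT5. They were so in 5.83% of 858 in KO6 and 11.3% of 820 in KO7. More peaks reach 10 expected counts in a deeper library, so the mice are scored on different sets of peaks. In WT2, WT3, KO8, KO9 and KO10 the shares were 0.391%, 0.407%, 0.111%, 0.235% and 0%, the last being 0 of 716 peaks. Among all other peaks the shares were from 0.199% (KO6) to 2.88% (WT5). In all, 485 of 1361 member peaks (35.6%) and 12621 of 229770 other peaks (5.49%) were nearly absent in at least 1 mouse. These shares depend on the limits set, and were 74.1% and 17.7% at under 20% of the expected count, and 26.8% and 1.10% where at least 20 counts were expected. Members are shallow, with a median of 7 counts per peak and mouse, against 6 elsewhere.

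**Figure D5:**
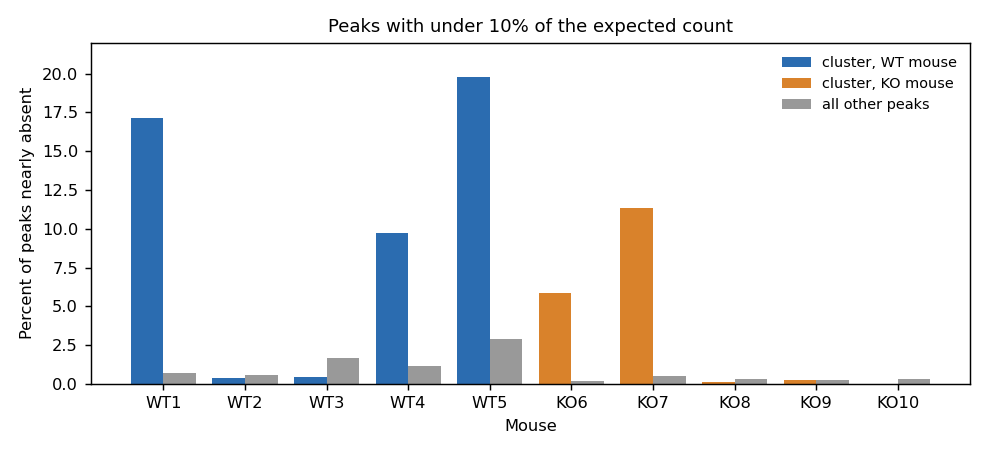
Percent of the peaks with at least 10 expected counts that had under 10% of the expected count (y axis) in each mouse (x axis). The cluster is blue for WT and orange for KO, and all other peaks are grey. WT1, WT4, WT5, KO6 and KO7 reach 5.83% to 19.8% in the cluster, and the other mice 0.407% or less.

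The comparison the study was designed for is KO against WT, fitted with edgeR's quasi-likelihood test across the whole table. As summed gene IDs, 0 of the 164 tested members passed an adjusted p of 0.05 (Benjamini-Hochberg), while 3.91% of all 36715 tested gene IDs did. With DESeq2's Wald test, 2 members (1.22%) and 5.96% of all gene IDs passed. At an unadjusted p under 0.05, 51 members (31.1%) were higher in KO mice and 0 were lower, while 15.7% of all tested gene IDs were higher and 11.8% lower. The count ran from 14 without KO10 (8.48%, below the 13.5% of all gene IDs in that fit) to 137 without WT2 (83.5%, against 16.8%). With DESeq2 it was 16 (9.76%), also below the 13.5% of all gene IDs. The log2 fold changes of the members ran from 0.04 to 0.99 with a median of 0.63, and all 164 were above 0, against a median of 0.00 over all gene IDs. Of the 5 high mice 3 were KO and 2 WT, and among the high and among the low mice the KO mice had the higher summed levels. The part of each in these fold changes was not tested. The values come from the mice on which the stretch was selected. They are thus no independent evidence of a difference between genotypes, and nothing is read from the count.

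Among the 8 named genes, Gm3383 had the lowest adjusted p from edgeR. Its level was 29.1 ± 11.4 CPM in WT and 42.4 ± 12.8 CPM in KO mice (SD, n = 5), which edgeR fitted as 0.57 on the log2 scale with a standard error of 0.22 and an adjusted p of 0.117. Without WT2 it passed, at 0.0333 from edgeR, with a log2 fold change of 0.75. With DESeq2 its adjusted p was 0.272, and the lowest of the 8 was that of D830030K20Rik, 0.205. Lamtor3l had the largest log2 fold change, 0.78 (standard error 0.36), with 20.9 ± 13.2 and 34.8 ± 17.2 CPM, and an adjusted p of 0.172 from edgeR. Gm3667 differed by 0.64 (standard error 0.46), with SDs of 43.7 and 48.3 CPM around means of 54.3 and 82.3 CPM. This value was 1.004 without WT2, 1.007 without WT3 and 0.41 without WT5. In each of the 8 the genotypes overlapped, and the log2 fold changes of the others were from 0.39 to 0.71 with adjusted p from 0.174 to 0.3804 from edgeR. These also moved when 1 mouse was left out. Gm3636 ran from 0.25 without WT1 to 0.66 without WT2, and Gm3558 from 0.31 without KO8 to 0.75 without WT2.

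The lowest adjusted p of the cluster from edgeR, 0.0552, belonged to a gene ID that did not follow the order of the mice. ENSMUSG00000094590, with 6 peaks between Lamtor3l and Gm3636, had 26.8, 21.2, 21.2, 17.6 and 21.3 CPM in WT1 to WT5 and 26.4, 31.0, 28.2, 24.5 and 31.6 CPM in KO6 to KO10. Of the 5 KO mice, 3 lay above every WT mouse, and WT1 lay within the KO values. The log2 fold change was 0.39 (standard error 0.11), against a standard error of 0.36 for the larger value of Lamtor3l. From edgeR its adjusted p was 0.0376 without WT1 and 0.0466 with at least 10 counts in every mouse, and from 0.0551 to 0.1399 when another mouse was left out. With DESeq2 it was 0.0424, where the lowest of a member gene ID was 0.0347. It was named after its values were seen, as 1 of the 6 gene IDs of smallest spread.

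As single peaks, 540 of the 1381 members (39.1%) had enough counts to be tested. The filter asks for a minimum in as many mice as a genotype holds, so a peak that was high in 5 mice could pass through those alone, and the counts that follow describe the peaks that passed, not all members. At an unadjusted p under 0.05, 168 (31.1%) were higher and 0 lower in KO mice, while 10.4% of all 81022 tested peaks were higher and 5.66% lower. With total counts in place of TMM factors the whole table leaned the other way, with 7.2% higher and 11.8% lower, and 126 members were higher and 0 lower. With no filter on low counts the whole table had 6.75% higher and 7.09% lower, and 404 of 1381 members were higher and 1 lower. After adjustment 0 peaks passed, in the cluster or elsewhere (0%), and DESeq2 passed 2 members (0.37%) and 0.681% of all peaks. The lowest adjusted p of a member from edgeR was 0.0736. The log2 fold changes of the 540 had a median of 0.78 and ran from -0.23 to 1.55, with 534 above and 6 below 0, and the median was 0.51 without WT5 and 1.13 without WT3. With no filter, over all 1381 members, 1265 were above and 116 below 0, from -1.85 to 2.15 with a median of 0.64. Within the named genes, each tested peak was above 0, as in Gm3667 with 12 tested peaks from 0.47 to 1.13.

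These calls moved with the mice included. Without WT2, 31 gene IDs and 30 peaks of the cluster passed an adjusted p of 0.05, all higher in KO mice, while 2186 gene IDs of the whole table passed as higher and 1124 as lower. These were 18.9% of the member gene IDs, against 8.87% of all, and 5.09% of the member peaks, against 2.21% of all. Without KO7, 8 member gene IDs (4.85%) and 5.99% of all gene IDs passed, with 1 member peak (0.155%) and 0.071% of all peaks. Without WT1, 1 member gene ID (0.606%) and 3.42% of all gene IDs passed. Except without WT2, and for the peak without KO7, these member shares were below those of the whole table. The count of member peaks at an unadjusted p under 0.05 ran from 65 of 561 without KO10 (11.6%, with 9.13% of all peaks higher) to 393 of 574 without WT3 (68.5%, with 9.95% of all higher). What sets the level of the cluster in a mouse was not tested.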

How the data were processed

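ATAC-seq was measured in IECs of 5 WT and 5 KO mice, grouped by the sample labels. The authors deposited raw counts per peak for 1 peak set common to all mice, with a gene ID per peak and build mm10 per the submitters' processing notes. They also deposited a normalized signal, the count divided by 1 factor per mouse, used here only as an alternative scaling. The aligner, peak caller, duplicate handling and treatment of reads with several places are not given in the sources used here, and all of them bear on repeated genes. Of 246501 entries, 22 were empty, 0 of them in the cluster.

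Peaks, and counts summed by gene ID, passed edgeR 4.0.16's filterByExpr (81022 peaks, 36715 gene IDs), were scaled by TMM and tested by glmQLFit and glmQLFTest with Benjamini-Hochberg adjustment under R 4.3.3. CPM are TMM-scaled, log2 CPM used a prior count of 2, and the standard error is the log2 fold change over the root of F. DESeq2 1.42.0 was an alternative. Tables and alignments used Python 3.11.15, pandas 2.3.3 and Biopython 1.88. In simulated counts for gene IDs, 81 of 98 tested 2-fold changes and 95 of 96 tested 4-fold changes were recovered, with 22 false calls among 36715. For peaks, 49 of 84 and 84 of 85 were recovered, with 16 false calls among 81022. The changes were placed at random over the whole table, so recovery among members was not measured. The median biological coefficient of variation of gene IDs was 0.362 for members and 0.130 for all. For peaks it was 0.447 and 0.163.

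The labels say nothing of separate litters or cages, so p-values measure the spread between these mice. Members, lists and rules were chosen with earlier results of these data known. Named were the genes of the study's list in the cluster, the 8 gene IDs with most peaks, and the 6 of largest and 6 of smallest spread. The Dlg family and cell type markers of that plan had no ID paired with a symbol and were not analysed here. The study's fold changes and p-values were not used.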

Additional observations from a re-analysis of the deposited data

How the results depend on the processing

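No paired analysis was possible because mice are numbered from 1 to 5 in WT and from 6 to 10 in KO, so the groups share no replicate number. Member peaks at an unadjusted p under 0.05 (168, or 31.1% of the 540 tested, against 10.4% of all peaks higher and 5.66% lower) numbered 110 with loess offsets (20.4% against 13.6% of all in either direction), 405 of 1381 with no filter on low counts (29.3% against 13.8%), 89 of 160 with at least 10 counts in every mouse (55.6% against 15.4%), 93 with DESeq2 (17.2% against 12.3%), and 65 to 393 with a mouse left out. Member peaks past an adjusted p of 0.05 (0) numbered 2 with at least 10 counts in every mouse (1.25%, and 1.53% of all peaks), 2 with DESeq2, and 0 to 30 with a mouse left out. Member gene IDs past it (0) numbered 1 with at least 10 counts in every mouse (0.637%, and 5.27% of all gene IDs), 2 with DESeq2, and 0 to 31 with a mouse left out. With at least 10 counts in every mouse, the median coefficient of variation of member peaks was 0.302 and 78 members were among the 500 most variable peaks. Member peaks nearly absent in at least 1 mouse (485) numbered 1008 at 20% of the expected count (74.1%, and 17.7% of other peaks) and 314 where at least 20 counts were expected (26.8%, and 1.10%). The cause was not tested, except that the stricter filters leave fewer peaks. The median log2 fold change of member peaks (0.78) stayed above 0 in each alternative run and ran from 0.51 without WT5 to 1.13 without WT3. The difference in share between genotypes kept its direction and moved by less than the SD within WT. Of 120 values of the 8 named genes under the alternatives, 0 changed sign and 1 passed an adjusted p of 0.05 (Gm3383 without WT2). They ran from 0.25 to 1.06. The order of the mice held for 150 member gene IDs with total counts (91.5%, and 0.361% of gene IDs elsewhere). It held for 153 with the deposited signal (93.3%, and 0.369% elsewhere). Both alternatives were chosen after seeing the data. A median of 7 counts per peak and mouse limits what a single peak of the cluster can show.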
